A study of Mus musculus with 12 samples.

Results

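Kidneys injured by ischemia and reperfusion after hypoxic preconditioning were compared with kidneys injured in the same way without it. All mice were wild type and the tissue was whole kidney. Renal ischemia-reperfusion injury (RIRI) was produced by clamping both renal pedicles for 45 min and letting blood return for 12 h. The normoxic RIRI group had no preconditioning. The preconditioned RIRI group had stayed in a normobaric chamber at 8% oxygen before surgery, in sessions on days 1, 2 and 3 that lasted 2 h, 4 h and 8 h, respectively. Each group had 3 mice, so 6 of the 12 libraries of the series entered the comparison, and 11754 of the 25553 genes of the expression table were tested: those with at least 1 FPKM (fragments scaled by gene length and library size) in at least 3 of the 6 libraries. The other 6 libraries, 3 of normoxic and 3 of preconditioned mice after a sham operation, are given as background. Strain, age and sex are not given in the labels. The design holds 1 reperfusion time, and a whole kidney mixes tubule, vessel and blood cells, so that fewer cells of a type and less RNA per cell cannot be told apart.

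The kidney tubule reclaims filtered solutes, and its proximal segment spends most of the kidney's oxygen on this work. When blood flow stops and returns, injured tubule cells lose transporters and oxidative enzymes and switch on a repair and stress program that includes secreted lipocalin, keratins and AP-1 transcription factors. Exposure to low oxygen before the injury is known to lessen damage in several organs. Hypoxia inducible factors, which oxygen-dependent hydroxylases mark for degradation, are the best known transcription factors involved. Interleukin 17 signalling, named in the title of the study, runs from a receptor pair through the adaptor Traf3ip2 (Act1) and Traf6 to NF-kB.

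Recovered depth of the 6 injured libraries was 33400523 to 35271162 reads, and 11301 to 11775 genes per library reached 1 FPKM. Genes of the mitochondrial genome took 10.3% to 12.6% of the FPKM total. Across genes, which are no independent replicates, Pearson's r of log2(FPKM + 1) between libraries was 0.985 to 0.991 within preconditioned RIRI, 0.982 to 0.989 within normoxic RIRI and 0.930 to 0.973 between both. The median SD of log2 values between mice was 0.118 in preconditioned RIRI and 0.147 in normoxic RIRI, against 0.082 and 0.081 in preconditioned and normoxic sham. The libraries were kidney by their markers, with Kap, an androgen-driven proximal tubule gene, at 13240.2 FPKM or more in every injured library and Y chromosome genes present in all of them. None of the tested genes marked T or NK cells or the adrenal gland: the summed FPKM of the T and NK list was 0.483 to 1.67 in normoxic and 1.28 to 2.38 in preconditioned RIRI, and that of the adrenal list was at most 0.944.

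Preconditioned and normoxic injured kidneys differed in 3261 genes at a limma adjusted p under 0.05, which is 27.7% of those tested. Of these, 1875 (16.0%) were higher and 1386 (11.8%) were lower in preconditioned RIRI. The change was at least 2-fold, that is at least 1 on the log2(FPKM + 1) scale, in 335 genes that rose and 234 that fell. All 3 preconditioned values lay on 1 side of all 3 normoxic values in 5586 genes (47.5%). All tested genes had a median log2 fold change of 0.04, or of 0.00 once libraries were rescaled by median ratios. That rescaling made 51.0% of the called genes higher, in place of 57.5%, and quantile normalization made it 48.2%, so the balance between both directions depends on the scaling. Of the tested genes, 249 reached 1 FPKM in the mice of 1 group only, and 212 of these (85.1%) were called. Such genes could hardly pass the filter without differing, so their tests support nothing. They are marked where described by name, and lists with called genes of this kind are also counted without them. The remaining 11505 genes had 1715 higher and 1334 lower. The counts rest in part on single mice: without preconditioned mouse 2 they were 961 higher and 662 lower, without preconditioned mouse 3 they were 1085 and 875, and without normoxic mouse 3 they were 1102 and 731.

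The sham kidneys show where these genes stood. Of the 1386 genes that were lower in preconditioned RIRI, 1071 (77.3%) were above all 6 sham values in all 3 preconditioned injured mice, and 299 (21.6%) overlapped the sham range. Of the 1875 genes that were higher, 918 (49%) were below all 6 sham values in all 3 mice, 815 (43.5%) overlapped them, and 142 (7.57%) were above all of them. The most common position was therefore between the normoxic injured and the sham kidneys. Slc13a1, Npl and Apoa4, given with the tubule genes, belong to the 142.

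**Figure D1:**
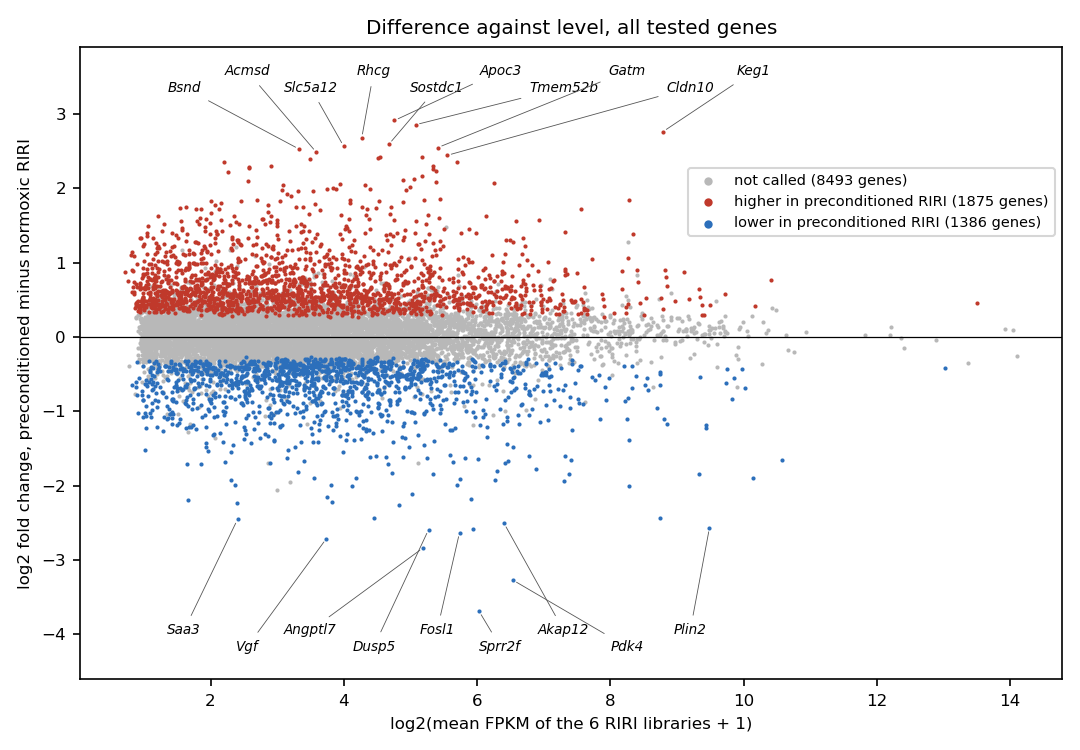
Each point is 1 of the 11754 tested genes, with its level in the 6 injured libraries on the x axis (log2 of mean FPKM + 1) and its log2 fold change, preconditioned minus normoxic RIRI, on the y axis; red genes rose (1875), blue genes fell (1386) and grey genes did not pass the test. The 10 largest increases and 9 of the 10 largest decreases among called genes are named, and both colours run across the whole range of levels.

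Promoter sequences are shown for 3 genes that fell and carry the motif of AP-1, an injury factor. Some other motifs differed more in frequency between genes that fell and genes that rose, as given below. Promoters of 300 bases, 250 before and 50 after the start, were read from RefSeq (GRCm38.p6) for 180 of the 234 genes that fell at least 2-fold, 257 of the 335 that rose at least 2-fold, and 9308 tested genes in all. Each AP-1 motif (TGANTCA) is in capitals. Each sequence is written on the strand of its gene, 5′ to 3′, and covers 120 bases.
Sprr2f, chr3:92364940-92365059, plus strand: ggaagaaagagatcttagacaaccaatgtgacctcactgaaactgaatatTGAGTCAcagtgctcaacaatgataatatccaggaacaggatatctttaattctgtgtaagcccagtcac
Plaur, chr7:24462363-24462482, plus strand: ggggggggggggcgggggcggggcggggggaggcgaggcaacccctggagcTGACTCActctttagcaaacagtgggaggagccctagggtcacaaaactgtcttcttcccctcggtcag
Srxn1, chr2:152105372-152105491, plus strand: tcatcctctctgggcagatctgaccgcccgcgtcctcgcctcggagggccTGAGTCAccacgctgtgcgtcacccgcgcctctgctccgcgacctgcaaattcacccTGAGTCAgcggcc
The motif ended 190 bases before the start in Sprr2f and 62 in Plaur, and the pair in Srxn1 ended 95 and 38 bases before it. For Plaur the start used by RefSeq's table lies inside the widest span annotated for the gene.

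TGANTCA was present in 13.9% of the promoters of genes that fell at least 2-fold, in 9.34% of those that rose, in 6.13% of all tested genes and in 8.97% of all 27025 promoters. The CRE motif TGACGTCA, bound by CREB and ATF factors, was in 5.0% of the genes that fell and 0.778% of those that rose, against 3.44% of tested genes. The glucocorticoid response element was in 3.33%, 1.95% and 0.43%, in the same order. The C/EBP motif TTGCNNAA was in 16.1%, 15.6% and 9.98%. Both, like AP-1, were more frequent in each changed group than in tested genes. The remaining motifs, for the same 3 sets, were the HNF4 motif CAAAGTCCA (1.11%, 1.17% and 0.516%), the metal response element TGCGCNC (28.3%, 15.2% and 30.0%), the antioxidant response element TGACNNNGC (22.2%, 15.2% and 17.0%), the E2F motif TTTCGCGC (0.0%, 0.389% and 0.774%), the ETS motif ACCGGAAGT (0.556%, 0.389% and 2.48%), NF-kB (2.78%, 2.72% and 2.05%) and CArG (86.1%, 78.2% and 88.9%). All 11 motifs were searched on both strands. No shown AP-1 match overlapped another motif searched. These shares are descriptions with no test, and a match is neither a bound site nor a cause.

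Genes of tubular injury were lower after preconditioning. Of 32 listed and tested, 22 fell (68.8%, against 11.8% of all tested genes) and 0 rose. The median log2 fold change was -0.95, against 0.04 for all tested genes. Krt20, a keratin of injured epithelium (chr11:99428385-99438153), had FPKM of 560.9, 994.0 and 598.1 in normoxic mice 1, 2 and 3 and 159.9, 74.8 and 174.5 in preconditioned mice 1, 2 and 3. The groups were far apart, 5.26-fold in mean FPKM, and the sham means of 0.179 and 0.258 FPKM lay lower still (log2 fold change -2.43, SE 0.34, limma adjusted p = 0.00404). Lcn2, the secreted lipocalin measured clinically as NGAL (chr2:32384637-32387739), was at 1557, 3009 and 2419 FPKM in normoxic and 775.2, 525.6 and 890.3 in preconditioned RIRI. Every preconditioned value was below every normoxic one, by 3.19-fold in the means (adjusted p = 0.00638), while sham means were 2.72 and 4.09 FPKM.

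Sprr2f, a cornified envelope protein of stressed epithelium (chr3:92365187-92366442), showed the largest decrease of all genes named by size. Its FPKM was 101.1, 118.6 and 137.7 in normoxic and 16.6, 4.01 and 8.03 in preconditioned RIRI, a 12.5-fold difference (log2 -3.69, SE 0.39, adjusted p = 0.00196). The Sprr2 genes are near copies of each other, and reads could have been split among them. Plaur, the urokinase receptor, went from 113.0, 131.5 and 145.3 to 48.5, 31.6 and 39.8 FPKM (log2 -1.69, adjusted p = 0.00188). Akr1b8, an aldo-keto reductase, went from 100.6, 72.6 and 118.8 to 29.0, 30.7 and 30.6 FPKM (adjusted p = 0.0019), and the preconditioned mice were nearly equal. Hmga1, a chromatin architectural protein, was at 103.6, 93.4 and 93.7 against 23.1, 16.0 and 23.8 FPKM (adjusted p = 0.000981), with a near-identical copy in the genome that could share its reads.

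Other injury genes moved less or not at all by the test. Spp1, which encodes osteopontin, had 9099, 8269 and 11215 FPKM in normoxic and 7189.6, 6936 and 7069.6 in preconditioned RIRI, the largest loss in FPKM of any called gene, at a log2 fold change of -0.42. Its adjusted p was 0.0479, and it lost the call without any 1 of the 6 mice but normoxic mouse 2 (adjusted p of 0.0794 to 0.125). Havcr1, which encodes the injury marker KIM-1, was at 216.2, 105.6 and 470.0 FPKM in normoxic and 672.7, 127.3 and 294.6 in preconditioned RIRI. The groups overlapped throughout (log2 fold change 0.41, SE 0.67, adjusted p = 0.677), and its sign changed to -0.19 without preconditioned mouse 1 and to -0.12 without normoxic mouse 2. Havcr1 therefore did not move with Lcn2 and Krt20 in these mice.

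AP-1 and other immediate early factors fell as a group, with a median of -1.04. Of 22 tested members 20 were lower (90.9%, against 11.8% of all tested genes) and 0 higher. Fosl1, the AP-1 subunit Fra-1 (chr19:5447698-5455938), was at 67.6, 97.5 and 106.0 FPKM in normoxic and 16.5, 7.99 and 18.3 in preconditioned RIRI, against sham means of 0.0443 and 0.0403. The groups did not overlap and differed 6.33-fold (log2 -2.63, SE 0.30, adjusted p = 0.00209). Atf3, a stress-induced partner of AP-1, went from 16.2, 23.4 and 23.4 to 7.05, 7.48 and 8.45 FPKM (adjusted p = 0.00226). Myc, a growth transcription factor, went from 54.5, 60.8 and 56.5 to 28.4, 22.9 and 32.6 FPKM (log2 -1.02, adjusted p = 0.00339). Within the preconditioned group mouse 2 was lowest in Fosl1 and Myc but not in Atf3.

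Feedback genes that are induced by ERK signalling and dampen it followed the same direction, with a median of -0.61. Of 16 tested, 9 were lower (56.2%, against 11.8% of all tested genes) and 0 higher. Without 2 that passed the filter through 1 group alone, the other 14 had 8 lower and 0 higher. Dusp5, a nuclear ERK phosphatase, was at 44.0, 84.2 and 66.2 FPKM against 11.7, 4.78 and 15.1 (log2 -2.59, adjusted p = 0.0047). Dusp1, a phosphatase that also answers to glucocorticoids, was at 54.5, 115.9 and 77.2 against 22.6, 14.8 and 20.8 FPKM (adjusted p = 0.00358). Its sham means were 44.2 (SD 27.3) and 38.1 (SD 24.1) FPKM, above all 3 preconditioned injured values on average but widely spread. Spred3, a Ras-ERK inhibitor, was low in all libraries, at 2.99, 3.29 and 3.80 against 1.16, 1.04 and 1.49 FPKM (adjusted p = 0.00276).

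Vgf, Akap12 and Angptl7 were among the largest decreases. Vgf, a neuropeptide precursor, was listed at 0 in every sham library and reached 25.4, 14.3 and 26.7 FPKM in normoxic but 3.93, 1.43 and 2.33 in preconditioned RIRI (adjusted p = 0.00202). Akap12, a kinase scaffold, and Angptl7, an angiopoietin-like protein, fell by 2.5 and 2.83 on the log2 scale (adjusted p = 0.00404 and 0.0044). Neither overlapped between the groups.

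**Figure D2:**
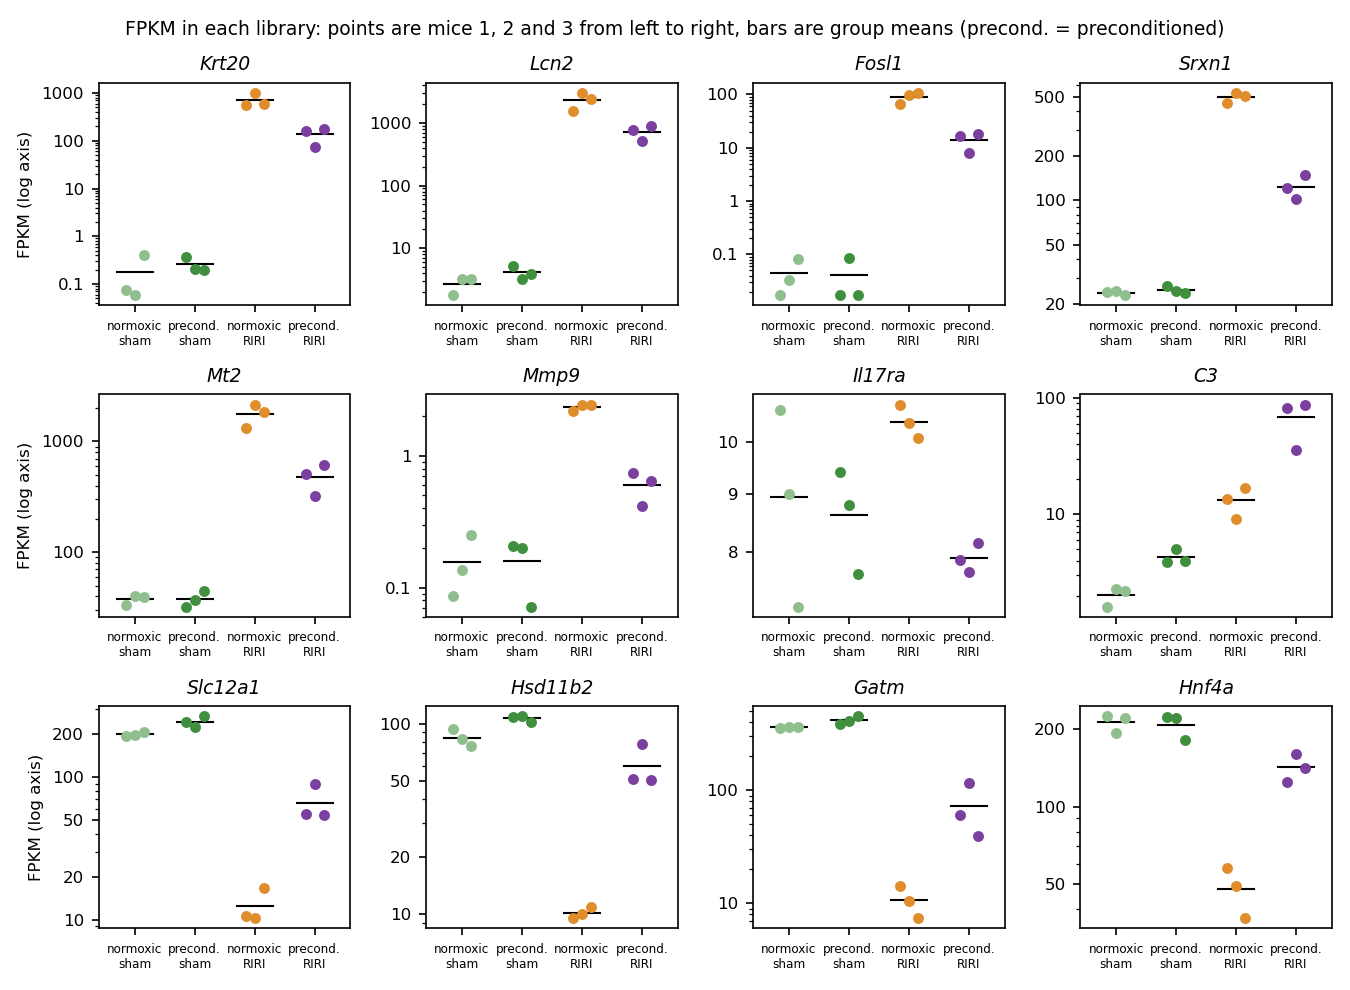
FPKM on a log axis for 12 genes in the 12 libraries, with points for mice 1, 2 and 3 of normoxic sham (light green), preconditioned sham (dark green), normoxic RIRI (orange) and preconditioned RIRI (purple), and bars for group means. Krt20, Lcn2, Fosl1, Srxn1, Mt2 and Mmp9 lie lower in preconditioned than in normoxic RIRI, Slc12a1, Hsd11b2, Gatm and Hnf4a lie higher and nearer to sham, C3 lies above all other groups, and Il17ra stays within a narrow range.

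Among interleukin 17 genes the receptor chain Il17ra was slightly lower and Il17rb was higher, and the other receptor chain and adaptors described here did not pass the test. For Il17a itself the table lists no values, and it was not analysed here. Il17ra, the shared receptor chain (chr6:120463181-120483731), was at 10.8, 10.4 and 10.1 FPKM in normoxic and 7.86, 7.68 and 8.14 in preconditioned RIRI, with sham means of 8.94 and 8.61. The groups did not overlap and differed 1.32-fold (log2 -0.36, SE 0.08, adjusted p = 0.0189). The call was lost without preconditioned mouse 1 (adjusted p = 0.059), preconditioned mouse 2 (0.0654) or normoxic mouse 3 (0.0508).

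Its partner and adaptors did not pass the test. Il17rc, the second chain of the IL-17A receptor, was at 24.8, 18.6 and 20.4 against 18, 19.3 and 21.4 FPKM (log2 -0.11, adjusted p = 0.553). Traf3ip2 was at 3.27, 4.56 and 4.21 against 2.84, 2.64 and 3.69 FPKM (-0.31, adjusted p = 0.144), and Traf6 at 5.51, 7.28 and 5.76 against 6.08, 5.50 and 5.83 (-0.07, adjusted p = 0.671). Values of all 3 genes overlapped between the groups. Il17rb, the receptor of interleukin 25, rose from 3.99, 1.25 and 2.34 to 9.83, 9.6 and 7.79 FPKM, above its sham means of 2.90 and 4.62 (log2 1.58, adjusted p = 0.00639). Over the whole list of IL-17 ligands, receptors and adaptors, 2 of 18 tested genes rose (11.1%, against 16.0% of all tested genes) and 3 fell (16.7%, against 11.8%), with a median of -0.01, so neither share was far from that of all genes. The 2 that rose became 1 without normoxic mouse 3. The 3 that fell became 0 without preconditioned mouse 2 or normoxic mouse 3, and 1 without preconditioned or normoxic mouse 1.

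NF-kB genes, which act downstream, had 4 of 15 members lower and 0 higher, 26.7% against a background of 11.8%. Nfkbia, the inhibitor that NF-kB itself induces, was at 31.7, 47.1 and 46.9 against 28.3, 19.0 and 28.4 FPKM (adjusted p = 0.038), and the subunit Rela at 30.6, 43.0 and 35.2 against 23.7, 18.5 and 24.3 (adjusted p = 0.017). Rela was not called without preconditioned mouse 2 (adjusted p = 0.0536). Nfkbia kept its call in only 1 of the 6 fits without a mouse, the one without normoxic mouse 1, and the other 5 gave adjusted p from 0.054 to 0.11. It was not called in the fit of all 12 libraries either (0.0661). The 4 calls of the list became 0 without preconditioned mouse 2 and 2 without preconditioned mouse 1. They became 1 without preconditioned mouse 3, normoxic mouse 2 or normoxic mouse 3.

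Inflammatory cytokines and neutrophil attractants varied widely within preconditioned RIRI. Il6 was at 6.55, 12.3 and 8.85 FPKM in normoxic and 8.25, 0.471 and 1.14 in preconditioned RIRI (log2 -1.70, SE 0.61, adjusted p = 0.0744). The neutrophil attractant Cxcl2 was at 5.02, 18.2 and 16.2 against 7.19, 1.15 and 0.964 FPKM (adjusted p = 0.0508), and Cxcl1 at 21.3, 59.6 and 49.8 against 46.5, 12.7 and 20.1 (adjusted p = 0.277). In all 3 genes preconditioned mouse 1 lay at the level of normoxic mice and preconditioned mice 2 and 3 were lower. Without preconditioned mouse 1, Il6 and Cxcl2 passed the test (adjusted p = 0.00532 and 0.0156), and Cxcl2 also passed without normoxic mouse 1 (0.0227).

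Clcf1, an interleukin 6 family cytokine, fell from 36.2, 32.0 and 37.4 to 17.8, 11.1 and 18.3 FPKM (adjusted p = 0.00581). Ccl28, an epithelial chemokine, was at 0.63, 0.476 and 0.70 against 2.19, 3.78 and 3.25 FPKM, against sham means of 7.34 and 1.94 (adjusted p = 0.00242). It passed the filter through the preconditioned mice alone, so this test supports nothing. Among 20 tested chemokines 5 fell (25%, against 11.8% of all tested genes) and 2 rose (10%, against 16.0%). Without Ccl28 the other 19 had 5 lower and 1 higher. The 5 became 1 without preconditioned mouse 2, 2 without preconditioned mouse 3 or normoxic mouse 3, and 3 without normoxic mouse 2. Cxcl12, a chemokine of resting kidney, was one of the 2 that rose, from 3.32, 3.16 and 4.72 to 6.16, 8.23 and 6.12 FPKM (adjusted p = 0.0155).

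Of 21 acute phase, SOCS and STAT3 genes 8 were lower (38.1%, against 11.8% of all tested genes). The 4 that were higher (19.0%) were near the share of all genes (16.0%). Saa3, a serum amyloid made in inflamed tissue, was at 5.73, 12.7 and 5.24 against 1.86, 0.0533 and 0.164 FPKM (log2 -2.45, adjusted p = 0.00766). Pim3, a kinase induced by STAT3, was at 114.4, 139.8 and 99.6 against 59.4, 48.0 and 57.6 FPKM (adjusted p = 0.00356). The decreases became 4 without preconditioned mouse 2 and 5 without normoxic mouse 3, and the increases 2 without preconditioned mouse 1, preconditioned mouse 3, normoxic mouse 2 or normoxic mouse 3. Complement genes were higher in 5 of 18 members (27.8%, against 16.0% of all tested genes) and lower in 1 (5.56%, against 11.8%). Their median log2 fold change was -0.07, with 8 of 18 positive. The highest log2 fold change of both lists was 2.23, that of C3. C3, the central complement protein (chr17:57203967-57228136), was at 13.6, 9.07 and 16.9 FPKM in normoxic and 81.5, 36.1 and 87.9 in preconditioned RIRI, with sham means of 2.04 and 4.31. The groups did not overlap and differed 5.19-fold (log2 2.23, SE 0.35, adjusted p = 0.00552). C4b, which acts upstream of C3, rose from 2.03, 1.70 and 1.23 to 8.39, 5.91 and 5.93 FPKM (adjusted p = 0.00192), with a near-identical neighbour that could share reads. Cfb, which encodes factor B of the alternative pathway, rose from 100.7, 101.5 and 96.6 to 161.2, 135.8 and 145.8 FPKM, still under its sham means of 193.9 and 183.9 (adjusted p = 0.00732).

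Interferon-stimulated genes were higher in 6 of 22 tested members (27.3%, against 16.0% of all tested genes). The list had 0 lower and a median of 0.53. Ifit3 was at 4.52, 3.11 and 4.50 against 22.8, 12.3 and 8.27 FPKM (adjusted p = 0.013), and Cmpk2 at 1.58, 0.947 and 1.10 against 5.91, 3.48 and 2.63 (adjusted p = 0.0127). Ifit3 was at 8.39 FPKM (SD 0.0847) in normoxic and 22.5 (SD 12.1) in preconditioned sham. The mean log2 level of the list was 2.59, 2.44 and 2.53 in normoxic and 3.70, 2.87 and 3.80 in preconditioned sham. Among injured mice, preconditioned mouse 1 stood highest in both genes and in this level, 3.71 against 2.63 and 2.41 in preconditioned mice 2 and 3. Irf7, the interferon regulatory factor that amplifies the response, was at 8.24, 6.32 and 6.02 against 37.9, 6.84 and 6.15 FPKM, so that only that mouse stood apart (log2 0.73, adjusted p = 0.374, and -0.06 without it). The 6 calls became 3 without preconditioned mouse 1 and 2 without preconditioned mouse 2, normoxic mouse 2 or normoxic mouse 3.

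Neutrophil genes were lower in 12 of 15 tested members (80.0%, against 11.8% of all tested genes), with 0 higher and a median of -1.09. Mmp9, a gelatinase stored in neutrophil granules, was at 2.19, 2.41 and 2.44 FPKM in normoxic and 0.742, 0.417 and 0.641 in preconditioned RIRI (adjusted p = 0.00192). Mmp8, the neutrophil collagenase, was at 1.95, 5.30 and 4.13 against 0.794, 0.0461 and 0.473 FPKM (adjusted p = 0.00775). Mmp9 and Mmp8 passed the filter through the normoxic mice alone, as did 3 members of the list in all, so their tests support nothing. The other 12 had 9 lower and 0 higher, with a median of -1.10. S100a8 and S100a9, the most abundant pair, varied more. S100a8 was at 34.1, 81.7 and 64.9 against 34.4, 7.14 and 13.5 FPKM (adjusted p = 0.0366), and S100a9 at 79.1, 165.9 and 107.8 against 64.1, 14.1 and 26.4 (adjusted p = 0.0273). Preconditioned mouse 1 lay at the level of normoxic mouse 1 in S100a8 and near it in S100a9. S100a8 was not called without preconditioned mouse 2 (0.0955), preconditioned mouse 3 (0.101), normoxic mouse 2 (0.102) or normoxic mouse 3 (0.0965), nor S100a9 without the same mice (0.0648, 0.0804, 0.0798 and 0.0664). The 12 calls became 6 without preconditioned mouse 2, 5 without preconditioned mouse 3, 7 without normoxic mouse 2 and 5 without normoxic mouse 3. The summed FPKM of the list was 176.2 to 355.0 in normoxic and 81.4 to 154.7 in preconditioned RIRI.

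Markers of monocytes and macrophages moved in part. Chil3, a chitinase-like protein of recruited myeloid cells, was at 5.38, 6.84 and 8.37 against 1.48, 0.767 and 0.94 FPKM (log2 -1.93, adjusted p = 0.00169), and the integrin Itgam at 4.24, 3.63 and 4.04 against 1.40, 1.10 and 1.57 (adjusted p = 0.0019). Cd14, the endotoxin coreceptor, was at 39.4, 134.8 and 80.4 against 23.8, 12.8 and 23.6 FPKM (adjusted p = 0.0163), a call lost without preconditioned mouse 2 (0.0542) or normoxic mouse 3 (0.051). C1qa, made by resident macrophages, was at 24, 15.3 and 20.7 against 18.5, 20.8 and 19.6 FPKM (log2 -0.00, SE 0.16, adjusted p = 0.989). In all, 3 of 12 tested genes of the list fell and 1 rose, where 11.8% of all tested genes fell and 16.0% rose. The 1 that rose passed the filter through 1 group alone, so its test supports nothing. The other 11 had 3 lower and 0 higher.

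Platelet factor Pf4 fell from 7.39, 6.38 and 10.4 to 4.13, 2.23 and 2.84 FPKM (adjusted p = 0.0086). Endothelial genes had 6 of 14 members lower (42.9%, against 11.8% of all tested genes) and 1 higher (7.14%, against 16.0%). The roundabout receptor Robo4 was at 9.72, 11.5 and 12.2 against 7.50, 6.14 and 6.69 FPKM (adjusted p = 0.00842), and Nos3, which encodes endothelial nitric oxide synthase, at 12.0, 15.4 and 14.1 against 7.76, 5.18 and 8.82 (adjusted p = 0.0133). The general endothelial marker Pecam1 was at 34.3, 29.4 and 40.3 against 32.9, 29.1 and 31.7 FPKM (log2 -0.14, adjusted p = 0.451). The 6 calls became 3 without preconditioned mouse 1 or normoxic mouse 2 and 2 without preconditioned mouse 2 or normoxic mouse 3. Hemoglobin transcripts, which come with blood left in the tissue, passed the limma test in 0 of 5 genes, with 0 at an unadjusted p under 0.05. Hbb-bs was at 350.8, 473.4 and 232.4 against 235.9, 1039 and 543.0 FPKM (adjusted p = 0.401), with the highest value in preconditioned mouse 2, and 3 of the 5 genes were called higher without preconditioned mouse 1. The part of blood content and of leukocyte number in the results on immune genes was not tested.

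**Figure D3:**
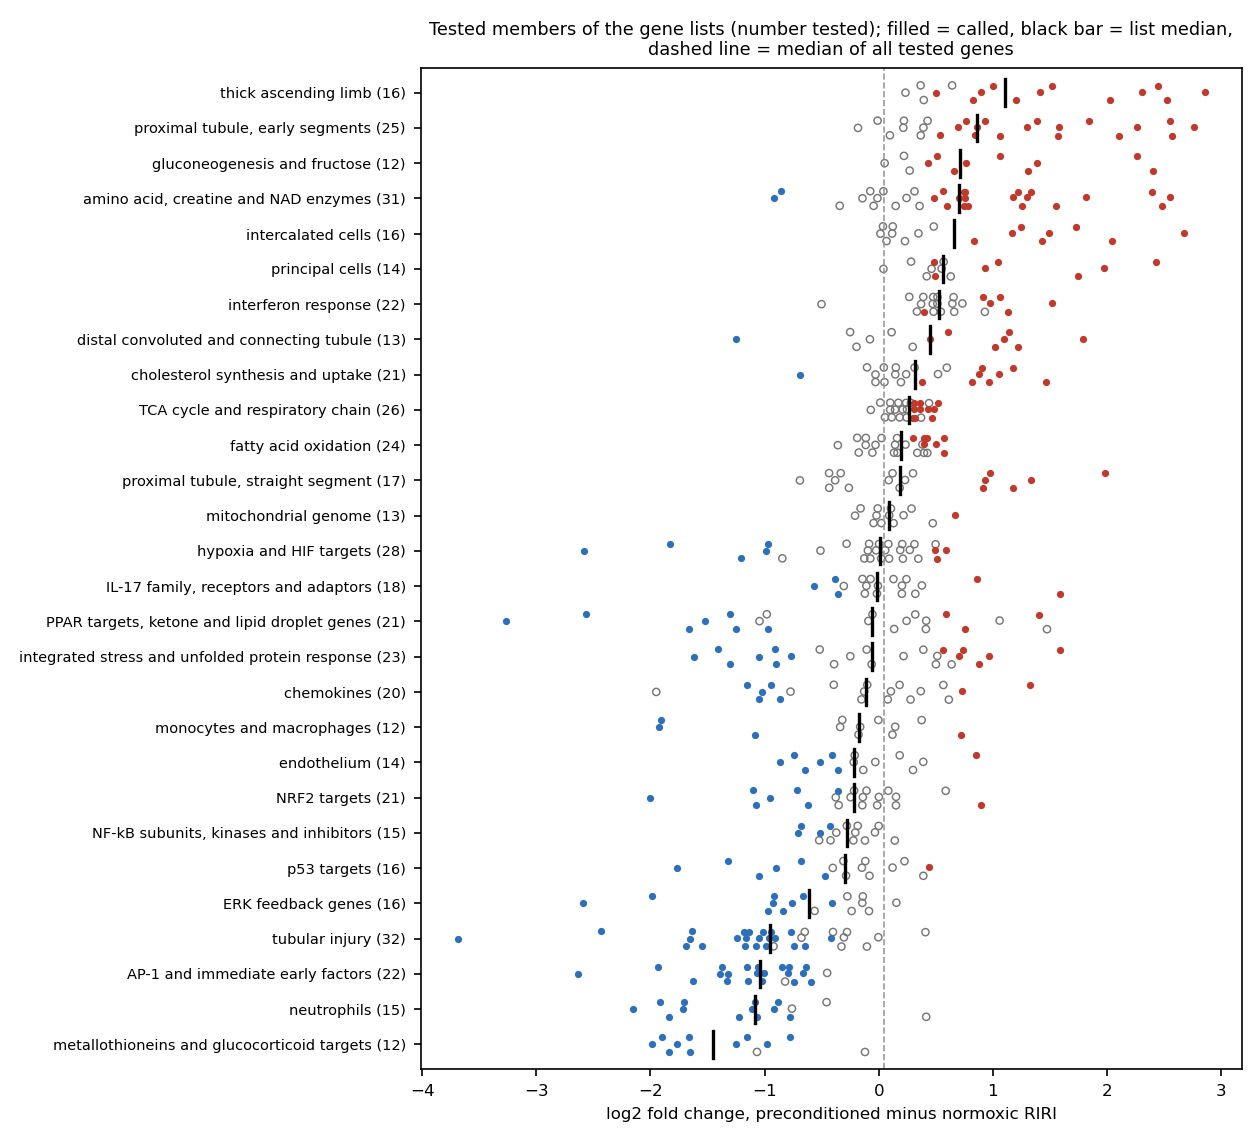
Log2 fold changes, preconditioned minus normoxic RIRI, for the tested members of 28 gene lists, one list per row with its number of tested genes; red points rose, blue points fell, open points did not pass the test, black bars are list medians and the dashed line is the median of all tested genes. Medians run from -1.45 in metallothioneins and glucocorticoid targets to 1.10 in the thick ascending limb, and the hypoxia list straddles zero.

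Genes of the proximal tubule were higher after preconditioning, unevenly between segments. Of 25 tested genes of the early segments 17 rose (68.0%, against 16.0% of all tested genes) and 0 fell (median 0.86). Of 17 genes of the straight segment 6 rose (35.3%) and 0 fell (median 0.18). Without 1 straight segment gene that passed the filter through 1 group alone, the other 16 had 5 higher and 0 lower (median 0.15). Slc37a4, the glucose 6-phosphate carrier, was at 21.8, 19.2 and 20.2 FPKM in normoxic and 57.0, 49.4 and 58.7 in preconditioned RIRI (log2 1.39, SE 0.10, adjusted p = 0.000981). Slc7a7, which exports cationic amino acids, was at 21.2, 12.6 and 12.4 against 50.8, 66.2 and 52.7 FPKM (adjusted p = 0.00209). Both had groups far apart and preconditioned means below the sham means. Slc5a12, a lactate carrier, rose from 4.57, 2.99 and 2.71 to 17.5, 41.3 and 20.9 FPKM (adjusted p = 0.00239). Gatm, the first enzyme of creatine synthesis, rose from 14.3, 10.6 and 7.39 to 60.5, 117.0 and 39.9 FPKM, against 364.6 and 418.5 in sham (log2 2.55, SE 0.38, adjusted p = 0.00465).

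Keg1, a kidney gene related to glycine acyltransferases (chr19:12695790-12719902), was among the largest changes in both fold and FPKM. It was at 197.2, 66.9 and 98.2 FPKM in normoxic and 751.8, 961.8 and 572.5 in preconditioned RIRI, with sham means of 1619 and 1072 (log2 2.76, adjusted p = 0.00354). In the straight segment, Slc16a9, a carnitine and monocarboxylate carrier, rose from 6.93, 3.54 and 4.61 to 21.1, 26.2 and 19.8 FPKM (adjusted p = 0.0019). Slc7a12, an amino acid transporter that passed the filter through the preconditioned mice alone, was at 0.0342, 0.0691 and 0.169 against 1.93, 2.40 and 1.09 FPKM, where the sham means differed as well, 2.06 in normoxic and 14.2 in preconditioned sham. Slc22a6, the organic anion transporter OAT1, rose from 132.0, 123.9 and 93.3 to 183.6, 226.8 and 215.5 FPKM (adjusted p = 0.00813).

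Other defining genes of the proximal tubule did not pass the test. Slc34a1, the main phosphate transporter, was at 677.1, 835.7 and 594.2 against 710.4, 841.7 and 689.0 FPKM (log2 0.10, SE 0.15, adjusted p = 0.648), with sham means of 2087 and 2061. Slc5a2, the glucose transporter SGLT2, was at 159.9, 197.7 and 160.0 against 168.2, 170.7 and 172.5 FPKM (log2 -0.01, SE 0.11, adjusted p = 0.955), with sham means of 283.6 and 282.8. Kap was at 19882, 21679.8 and 16252 against 18426, 16668 and 13240.2 FPKM (-0.26, adjusted p = 0.263). Groups of these 3 genes overlapped, at levels below the sham means in all 6 injured mice, so the difference by preconditioning was not shared by every gene of the segment.

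Slc13a1, Npl and Apoa4 were above all sham values in every preconditioned injured mouse. Slc13a1, a sulfate transporter (chr6:24088283-24168119), was at 156.6, 111.7 and 138.5 FPKM in normoxic and 533.2, 474.7 and 450.0 in preconditioned RIRI, with sham means of 148.0 and 182.3. Normoxic injured kidneys thus lay near sham and preconditioned ones above, with no overlap (log2 1.84, SE 0.14, adjusted p = 0.000981). Npl, a sialic acid lyase, was at 27.2, 9.44 and 14.7 against 77.1, 96.3 and 81.2 FPKM, with sham means of 32.8 and 40.3 (adjusted p = 0.00356). The apolipoprotein Apoc3 was at 4.24, 6.13 and 4.71 against 70.1, 27.4 and 44.0 FPKM, with 10.5 in normoxic and 28.4 in preconditioned sham (log2 2.91, SE 0.30, adjusted p = 0.0019), the largest increase among genes named by size, and its lowest value lay within the range of preconditioned sham. Its neighbour Apoa4 was at 4.12, 9.19 and 4.39 against 61.6, 17.0 and 37.6 FPKM (adjusted p = 0.0091). In both apolipoproteins preconditioned mouse 2 had the lowest value of its group.

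The thick ascending limb had the highest median of the lists with 10 or more tested genes, 1.10. Of its 16 tested genes 12 were higher (75.0%, against 16.0% of all tested genes) and 0 lower. Slc12a1, the loop diuretic target NKCC2 (chr2:125152510-125230002), was at 10.7, 10.3 and 16.7 FPKM in normoxic and 54.9, 89.6 and 54.3 in preconditioned RIRI, against 199.9 and 246.4 in sham. The groups differed 5.29-fold without overlap (log2 2.31, SE 0.24, adjusted p = 0.0019). Cldn10, the claudin that lets sodium pass between the cells, was at 16.3, 8.64 and 16.7 against 68.5, 96.6 and 69.0 FPKM (adjusted p = 0.0019). Tmem52b, a membrane protein, was at 8.45, 3.75 and 10.9 against 52.5, 63.7 and 57.3 FPKM (log2 2.85, adjusted p = 0.00192), and Bsnd, the chloride channel subunit barttin, at 2.45, 0.77 and 3.18 against 15.8, 17.7 and 14.6 (adjusted p = 0.0021). Normoxic mouse 2 was lowest and preconditioned mouse 2 highest in each of these 4 genes. Umod, which encodes uromodulin, was at 1059, 1201 and 1506 against 1475, 1732 and 1608 FPKM (log2 0.37, adjusted p = 0.0949, and 0.0417 without normoxic mouse 3), near its sham means of 1386 and 1614.

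Distal segments and the collecting duct moved in the same direction. Of 13 distal convoluted or connecting tubule genes 7 rose (53.8%, against 16.0% of all tested genes) and 1 fell (7.69%, against 11.8%). Without 1 that passed the filter through 1 group alone, the other 12 had 6 higher and 1 lower. The homeobox factor Emx1 was at 5.8, 3.49 and 3.84 against 15.3, 21.2 and 15.8 FPKM (adjusted p = 0.0019), and the calcium channel Trpv5 at 3.06, 4.22 and 3.35 against 8.31, 8.78 and 7.36 (adjusted p = 0.00249), above its sham means of 3.82 and 4.05. Among principal cell genes 7 of 14 rose and 0 fell. Hsd11b2, the enzyme that keeps cortisol-like steroids from the mineralocorticoid receptor (chr8:105518746-105523988), was at 9.51, 9.97 and 10.9 FPKM in normoxic and 51.2, 77.9 and 50.8 in preconditioned RIRI, with sham means of 84.4 and 106.6. That is a 5.92-fold difference with no overlap (log2 2.43, SE 0.17, adjusted p = 0.000981). Scnn1g, a subunit of the sodium channel ENaC, and Avpr2, the vasopressin receptor, rose by 1.75 and 1.97 on the log2 scale (adjusted p = 0.00137 and 0.00198), to levels near sham.

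Intercalated cells, which handle acid and base, had 8 of 16 genes higher and 0 lower, with a median of 0.66. Rhcg, an ammonia channel, was at 4.88, 2.29 and 6.06 against 32.5, 36.6 and 27.3 FPKM, with sham means of 48.9 and 59.9 (log2 2.68, SE 0.27, adjusted p = 0.00188). Atp6v1b1, a proton pump subunit, was at 7.78, 4.68 and 8.21 against 27.0, 36.4 and 29.5 FPKM (adjusted p = 0.00188), and Insrr, an alkali-sensing receptor, at 0.484, 0.399 and 0.49 against 2.19, 2.70 and 2.49 (adjusted p = 0.00116). Insrr passed the filter through the preconditioned mice alone, as did 3 members of the list in all, so its test supports nothing. The other 13 had 6 higher and 0 lower, with a median of 0.48. Sostdc1, a secreted BMP antagonist of the distal nephron, was at 10.3, 2.25 and 7.17 against 31.8, 67.6 and 28.4 FPKM (adjusted p = 0.00927). In Aqp1, the water channel of proximal tubule and thin limb, values of 75.3, 92.3 and 92.9 stood against 265.7, 340.3 and 262.5 FPKM (adjusted p = 0.00116). Of 11 podocyte genes 3 were higher (27.3%, against 16.0% of all tested genes), with a median of 0.17.

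**Figure D4:**
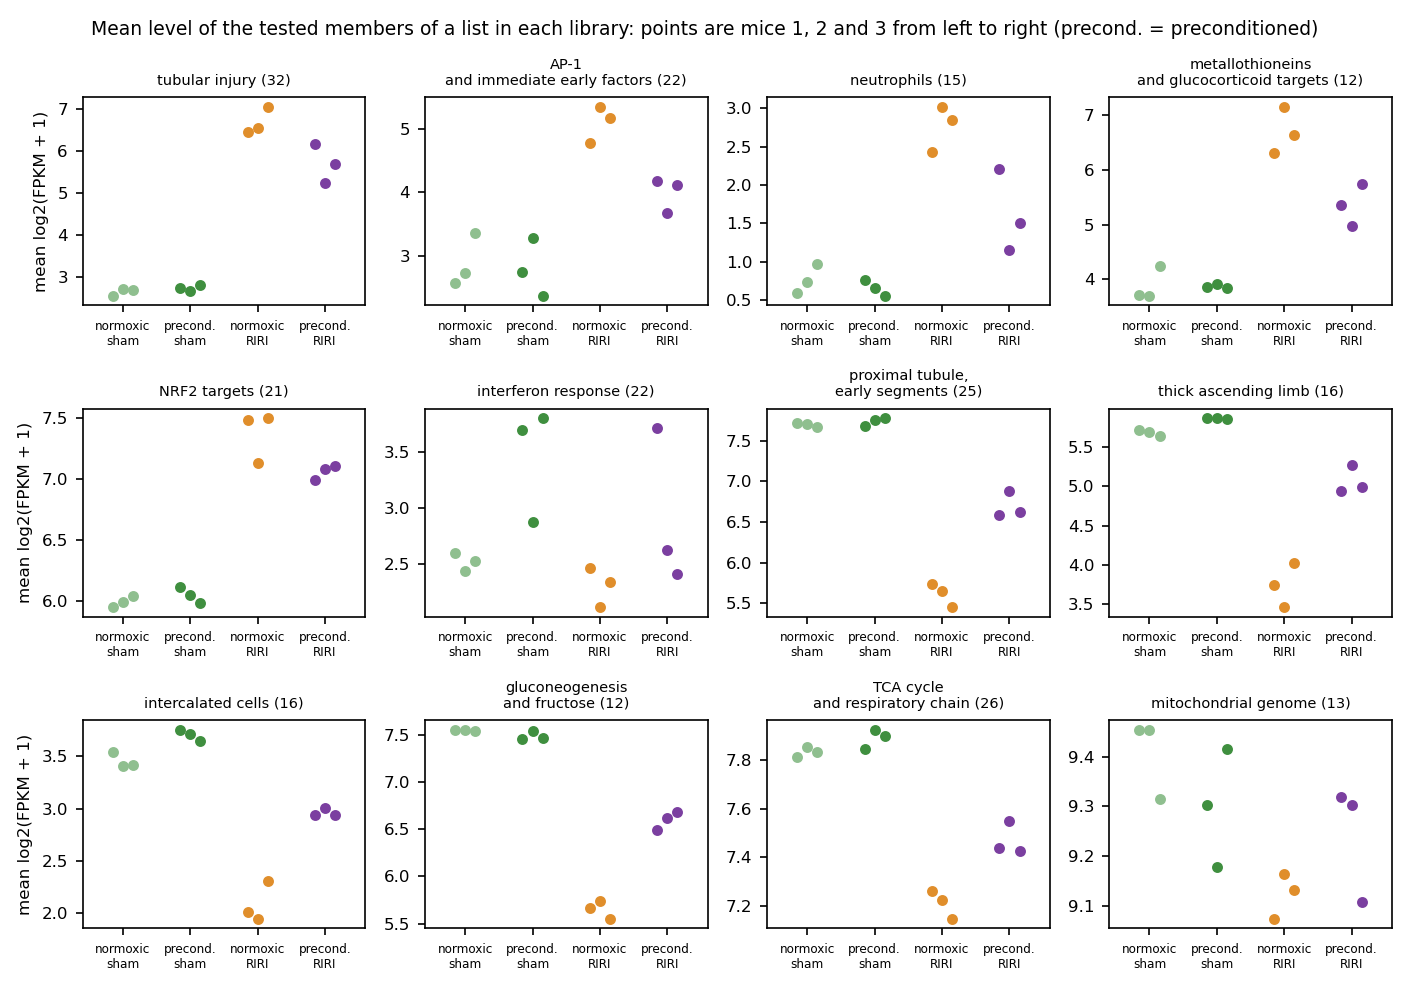
Mean log2(FPKM + 1) of the tested members of 12 lists in each of the 12 libraries, with mice 1, 2 and 3 from left to right in normoxic sham (light green), preconditioned sham (dark green), normoxic RIRI (orange) and preconditioned RIRI (purple); the y axes do not start at 0. Injury, AP-1, neutrophil and metallothionein lists lie between normoxic RIRI and sham in preconditioned RIRI, and nephron and glucose lists do so from below. Among injured mice the interferon list is highest in preconditioned mouse 1 (3.71), and preconditioned sham mice lie at 3.70, 2.87 and 3.80.

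Enzymes of glucose and amino acid metabolism rose. Of 12 genes of gluconeogenesis and fructose use 9 rose (75.0%, against 16.0% of all tested genes) and 0 fell (median 0.71). The 9 became 5 without preconditioned mouse 1 or 3. G6pc, the last enzyme of glucose release (chr11:101367716-101377903), was at 9.63, 16.2 and 12.6 FPKM in normoxic and 43.0, 75.1 and 81.4 in preconditioned RIRI, well under the sham means of 319.1 and 275.4 (log2 2.26, SE 0.26, adjusted p = 0.00231). Glyctk, a glycerate kinase of fructose and serine breakdown, was at 12.5, 2.92 and 5.67 against 35.6, 37.9 and 35.9 FPKM (adjusted p = 0.00572).

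Of 31 enzymes of amino acid, creatine and NAD metabolism, 19 rose (61.3%, against 16.0% of all tested genes) and 2 fell (6.45%, against 11.8%). Their median was 0.70. Hgd, which breaks down tyrosine, was at 59.4, 65.5 and 61.1 against 144.1, 148.5 and 144.9 FPKM (log2 1.22, SE 0.09, adjusted p = 0.000981), and Dao, the D-amino acid oxidase, at 53.5, 47.4 and 52.6 against 121.6, 131.2 and 129.8 (adjusted p = 0.000981). The spread within groups was small in both. Acmsd and Kynu, which act in tryptophan breakdown, were higher as well. Acmsd was at 3.20, 2.14 and 1.37 against 16.8, 35.1 and 7.51 FPKM, with sham means of 81.6 and 89.5 (adjusted p = 0.00987). Kynu was at 0.128, 0.0431 and 0.109 against 1.72, 1.96 and 1.6 FPKM, with 0.777 in normoxic and 3.63 in preconditioned sham (adjusted p = 0.000981). It passed the filter through the preconditioned mice alone, so its test supports nothing. The other 30 members had 18 higher and 2 lower.

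Cholesterol synthesis had 8 of 21 genes higher (38.1%, against 16.0% of all tested genes) and 1 lower (4.76%, against 11.8%). Hmgcs1, which commits acetyl units to the pathway, was at 25.7, 24.7 and 25.9 against 55.8, 75.2 and 48.5 FPKM (adjusted p = 0.00331), and Mvd, a later enzyme, at 10.5, 6.48 and 6.43 against 21.6, 29.2 and 18.8 (adjusted p = 0.00448). Preconditioned mouse 2 was highest in both. The 8 calls became 4 without preconditioned mouse 1 or 2, 3 without normoxic mouse 2 and 5 without normoxic mouse 3.

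Mitochondrial genes of the nucleus differed by small amounts. Of 26 TCA cycle and respiratory chain genes 10 rose (38.5%, against 16.0% of all tested genes) and 0 fell (median 0.26). The 10 became 3 without preconditioned mouse 1 or 3 and 2 without preconditioned mouse 2 or normoxic mouse 3. Ndufs1, a complex I subunit, was at 37.8, 34.3 and 38 against 54.1, 56.6 and 48.6 FPKM, with sham means of 78.6 and 80.1 (log2 0.52, SE 0.10, adjusted p = 0.00954). Of 51 tested Nduf genes 22 rose (43.1%, against 16.0% of all tested genes) and 0 fell, with a median of 0.32. The 22 became 13, 8, 12 and 11 without preconditioned mouse 1, preconditioned mouse 2, normoxic mouse 2 and normoxic mouse 3. Fatty acid oxidation had 7 of 24 genes higher (29.2%, against 16.0% of all tested genes) and 0 lower. The 7 became 1 without preconditioned mouse 3 or normoxic mouse 3, 2 without preconditioned mouse 1 and 3 without normoxic mouse 1. They became 4 without preconditioned mouse 2, and 3 after median-ratio rescaling. Etfb, which hands electrons from fatty acids to the chain, was at 198.6, 195.2 and 170.6 against 270.0, 271.3 and 298.5 FPKM (adjusted p = 0.00775). Ppargc1a, the coactivator of mitochondrial genes, rose from 1.62, 1.10 and 1.52 to 2.74, 3.56 and 2.91 FPKM (adjusted p = 0.00698). Genes encoded by the mitochondrial genome had a median of 0.09, with 1 of 13 called higher (7.69%, against 16.0% of all tested genes) and 0 lower.

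Genes of lipid droplets, ketone bodies and PPAR control were mixed, with 7 of 21 lower (33.3%, against 11.8% of all tested genes). The 3 that were higher (14.3%) were near the share of all genes (16.0%). Plin2, the lipid droplet coat protein (chr4:86626910-86670217), was at 861.2, 1262 and 1427 FPKM in normoxic and 338.5, 61.1 and 355.9 in preconditioned RIRI. The groups did not overlap, but preconditioned mouse 2 lay far under its group and the SE was 0.62 for a log2 fold change of -2.56 (adjusted p = 0.0218, 0.0591 without normoxic mouse 2 and 0.065 without normoxic mouse 3). Hilpda, which blocks fat breakdown in droplets, fell from 8.10, 18 and 11.0 to 4.47, 2.81 and 3.25 FPKM (adjusted p = 0.00739). Pdk4, the kinase that shuts pyruvate out of mitochondria, was at 71.5, 343.9 and 91.2 against 16.2, 5.04 and 23.8 FPKM, with normoxic mouse 2 far above the rest (log2 -3.27, SE 0.67, adjusted p = 0.0129). In glycolysis, the hexokinase Hk2 fell from 3.36, 4.87 and 4.87 to 1.35, 1.42 and 1.13 FPKM (adjusted p = 0.00229), and the phosphofructokinase Pfkm rose from 4.84, 2.99 and 3.53 to 7.63, 11.8 and 8.09 (adjusted p = 0.0078). Gpx3, the plasma glutathione peroxidase (9665, 10391 and 9165 against 13508, 12459.5 and 14297 FPKM), was among the 5 called genes with the largest gain in FPKM. Gpx3 (adjusted p = 0.0189) was not called without preconditioned mouse 1 (0.0636), preconditioned mouse 3 (0.072) or normoxic mouse 3 (0.0571).

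Metallothioneins and glucocorticoid targets had the lowest median of the lists shown by member, -1.45. Of 12 genes 10 were lower (83.3%, against 11.8% of all tested genes) and 0 higher. Mt1, a metal-binding protein, was at 707.0, 1420.3 and 906.1 FPKM in normoxic and 256.7, 232.6 and 332.6 in preconditioned RIRI, against sham means of 46.9 and 61.1 (log2 -1.84, adjusted p = 0.00379). Mt2 was at 1334, 2150.2 and 1832 against 510.9, 324.2 and 611.5 FPKM (adjusted p = 0.00358). Normoxic mouse 2 was highest in both. The clock gene Per1, which glucocorticoids also induce, was at 7.61, 12.7 and 8.77 against 3.00, 2.83 and 5.77 FPKM (adjusted p = 0.0153, and 0.0526 without preconditioned mouse 2). The 10 calls of the list became 6 without that mouse.

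Antioxidant targets of NRF2 were lower in 7 of 21 members (33.3%, against 11.8% of all tested genes) and higher in 1 (4.76%, against 16.0%). Without 1 lower gene that passed the filter through 1 group alone, the other 20 had 6 lower and 1 higher. Srxn1, which repairs peroxiredoxins (chr2:152105524-152111376), was at 453.9, 529.5 and 503.2 FPKM in normoxic and 120.8, 102.2 and 148.5 in preconditioned RIRI, with sham means of 23.7 and 24.8. The groups were 4.00-fold apart and each was narrow (log2 -2.01, SE 0.15, adjusted p = 0.000981). Hmox1, heme oxygenase, was at 295.6, 280.7 and 366.5 against 134.5, 137.7 and 164.0 FPKM (adjusted p = 0.00249), and Txnrd1, thioredoxin reductase, at 208.2, 220.4 and 231.7 against 116.8, 95.7 and 130.3 (adjusted p = 0.00352). Outside this list, Gpx4, which protects membranes from lipid peroxides, rose from 515.3, 459.8 and 456.6 to 624.5, 748.7 and 669.3 FPKM (adjusted p = 0.0138). Glutathione transferase genes rose in 8 of 19 tested members (42.1%, against 16.0% of all tested genes) and fell in 0. The 8 became 5 without preconditioned mouse 2 and 4 without preconditioned mouse 3.

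Hypoxia and HIF targets showed no common direction, with 5 of 28 lower (17.9%, against 11.8% of all tested genes), 3 higher (10.7%, against 16.0%) and a median of 0.01. Adm, which encodes the vasodilator adrenomedullin, fell from 46.1, 35.4 and 38.2 to 11.2, 7.75 and 13.1 FPKM (adjusted p = 0.0019), and Slc2a1, the glucose transporter GLUT1, from 81.3, 139.9 and 102.2 to 56.6, 50.9 and 52.6 (adjusted p = 0.00975). Hk2, given above, is also on this list. The 5 that fell became 8 without normoxic mouse 1, and the 3 that rose became 0 without preconditioned mouse 3 and 1 without preconditioned mouse 1, preconditioned mouse 2 or normoxic mouse 3.

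The integrated stress and unfolded protein responses held genes of both directions. Of 23 tested, 7 fell (30.4%, against 11.8% of all tested genes) and 6 rose (26.1%, against 16.0%). Atf4, the factor of the amino acid response, was at 212.2, 274.2 and 261.0 against 120.9, 125.8 and 151.1 FPKM (adjusted p = 0.0048). Its targets Asns, asparagine synthetase, at 35.1, 29.1 and 34.4 against 12.0, 18.6 and 16.1 (adjusted p = 0.00524), and Chac1, which degrades glutathione, at 25.5, 45.7 and 36.6 against 6.24, 10.6 and 18.1 (adjusted p = 0.0146), fell as well. Among proteins of the endoplasmic reticulum, the chaperone partner Sdf2l1 was at 7.68, 5.39 and 17.0 against 31.2, 21.8 and 36.1 FPKM (adjusted p = 0.0175, and 0.0613 without preconditioned mouse 3). The disulfide isomerase Pdia4 was at 35.5, 26.6 and 51.9 against 80.4, 65.7 and 72.6 FPKM (adjusted p = 0.0172, lost without preconditioned mouse 1 at 0.0513 or 3 at 0.0532). Hspa5, the master chaperone BiP, was at 190.7, 228.0 and 351.3 against 408.3, 296.9 and 358.5 FPKM (log2 0.50, adjusted p = 0.132, and 0.0309 without normoxic mouse 3). The 6 increases became 0 without preconditioned mouse 3, 1 without preconditioned mouse 1, 2 without preconditioned mouse 2 and 3 without normoxic mouse 1 or 2, and the 7 decreases became 4 without normoxic mouse 2.

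Cytosolic heat shock genes were called in 2 of 16 cases, both lower, a share (12.5%) near that of all tested genes (11.8%). Hspb1, the small chaperone Hsp27, fell from 217.6, 278.4 and 273.4 to 82.6, 61.6 and 103.1 FPKM (adjusted p = 0.00229). Hspa1a, an inducible Hsp70 with a near-identical neighbour, was at 23.0, 23.0 and 52.6 against 8.95, 6.29 and 14.1 FPKM (adjusted p = 0.0173, and 0.0567 without preconditioned mouse 2). The 2 calls became 1 without preconditioned mouse 2, and 4 without preconditioned mouse 3 or after median-ratio rescaling.

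Targets of p53 were lower in 6 of 16 members (37.5%, against 11.8% of all tested genes) and higher in 1 (6.25%, against 16.0%). Cdkn1a, the cell cycle inhibitor p21 (chr17:29090979-29100722), was at 130.1, 247.9 and 167.3 FPKM in normoxic and 54.0, 33.6 and 72.1 in preconditioned RIRI, with sham means of 5.61 and 6.04 (adjusted p = 0.00764). Gdf15, a circulating stress signal, was at 143.5, 142.0 and 109.3 against 68.2, 52.5 and 68.1 FPKM (adjusted p = 0.00416). The 6 decreases became 3 without preconditioned mouse 2 or normoxic mouse 3. Among cell death genes 7 of 17 fell (41.2%, against 11.8% of all tested genes) and 3 rose (17.6%, near the 16.0% of all). Without 1 higher gene that passed the filter through 1 group alone, the other 16 had 7 lower and 2 higher. Mlkl, the executor of necroptosis, went from 10.3, 6.12 and 7.29 to 2.78, 2.04 and 1.99 FPKM (adjusted p = 0.00296), and its upstream kinase Ripk3 from 3.02, 2.66 and 3.95 to 1.64, 1.80 and 1.34 (adjusted p = 0.0114). Bcl2l1, which encodes the survival protein Bcl-xL, fell too, from 109.1, 151.9 and 134.5 to 74.0, 56.2 and 80.4 FPKM (adjusted p = 0.00936). The 7 decreases became 4 without preconditioned mouse 2, preconditioned mouse 3 or normoxic mouse 2. The 3 increases became 1 without preconditioned mouse 2, preconditioned mouse 3 or normoxic mouse 3.

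Transcription factors of the nephron and of repair moved in both directions: of 25 tested, 10 rose and 5 fell, where 16.0% of all tested genes rose and 11.8% fell. Among the 10 that rose, 1 passed the filter through 1 group alone, so its test supports nothing. The other 24 genes of the list had 9 higher and 5 lower. Hnf4a, the master factor of the proximal tubule (chr2:163506811-163572907), was at 57.9, 48.9 and 36.8 FPKM in normoxic and 124.3, 160.5 and 141.7 in preconditioned RIRI, with sham means of 213.4 and 208.2. The groups were 2.97-fold apart with no overlap (log2 1.57, SE 0.17, adjusted p = 0.00201). Maf, a leucine zipper factor, rose from 11.9, 8.66 and 7.22 to 18.1, 24.7 and 30.1 (adjusted p = 0.00654). Lhx1, a LIM factor, rose from 1.14, 1.14 and 1.35 to 3.09, 3.13 and 3.20 FPKM (adjusted p = 0.0019). Hlf, a clock-linked factor on another list, was at 0.942, 0.987 and 0.718 against 4.77, 6.74 and 5.0 FPKM (adjusted p = 0.000981), and it too passed the filter through the preconditioned mice alone.

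On the side that fell, Sox9, a factor of regenerating tubule cells, was at 19.1, 28.8 and 18.7 against 9.89, 3.18 and 9.42 FPKM, with sham means of 0.0852 and 0.0552 (adjusted p = 0.019, and 0.0576 without normoxic mouse 2). Runx1, induced in injured epithelium and known from blood cells, was at 3.87, 6.08 and 4.66 against 1.85, 0.901 and 1.34 FPKM (adjusted p = 0.00404). Pax8, a kidney lineage factor, was at 114.4, 182.4 and 147.3 against 78.8, 61.0 and 71.3 FPKM, and above its sham means of 36.0 and 39.1 in both groups (adjusted p = 0.00699). The 10 increases became 6 without preconditioned mouse 2, preconditioned mouse 3 or normoxic mouse 3, and the 5 decreases became 3 without normoxic mouse 2.

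Gene families were also grouped by symbol. Of 255 tested genes with a solute carrier (Slc) symbol 84 rose and 29 fell, 32.9% and 11.4% against backgrounds of 16.0% and 11.8%. The largest decrease among them was that of Slc6a19os (log2 -2.23), an opposite-strand transcript by its symbol. Families were not recounted without genes that passed the filter through 1 group alone, such as Slc7a11. Tubulin genes fell in 7 of 9 cases (77.8%, against 11.8%) and rose in 0, with a median of -0.72. Ribosomal protein symbols were nearly flat: of 96 genes 0 rose and 1 fell, and the 1 was a kinase whose symbol shares the stem.

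The remaining lists had shares of called genes near those of all tested genes (16.0% higher and 11.8% lower), or few tested members. Cytokines of the IL-1, IL-6, TNF and CSF families, with Il6 and Clcf1 above, had 2 of 13 members higher and 2 lower (15.4% each), and the 2 decreases became 7 without preconditioned mouse 1. EGF receptor ligands and receptors had 1 higher and 1 lower of 8 (12.5% each), fibroblast and smooth muscle genes 2 higher and 1 lower of 13, clock genes 2 higher and 1 lower of 14, and male-biased kidney genes 2 higher and 0 lower of 14. Each of these calls but those of Clcf1, Hlf and Ugt8a, a male-biased glycosyltransferase, was lost in at least 1 fit without a mouse. Without Hlf, which passed the filter through 1 group alone, the other 13 clock genes had 1 higher and 1 lower. Of 7 tested cell cycle genes 0 passed the limma test and 0 had an unadjusted p under 0.05, and of 2 renin cell genes 0 passed it and 1 had such a p. Both tested adipose markers, Fabp4 and Cidec, fell (Cidec not without preconditioned mouse 1, 2 or 3, at adjusted p of 0.0704, 0.0821 and 0.061), while Adipoq was at most 0.428 FPKM and Lep at most 0.0275 in the injured mice.

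Some genes differed more between the mice of a group than between the groups. The fibrinogen chains Fgb, Fgg and Fga, clotting proteins that injured tubules also make, had the widest spread. Fgb was at 4.77, 12.2 and 189.1 FPKM in normoxic and 114.3, 0.978 and 8.35 in preconditioned RIRI, and Fgg at 18, 45.1 and 353.4 against 340.1, 9.85 and 43.4. Normoxic mouse 3 and preconditioned mouse 1 were high and preconditioned mouse 2 was low. In Havcr1 above the high mice were the same, but normoxic mouse 2 was lowest. The adjusted p values of the fibrinogen chains were 0.705 for Fgb, 0.888 for Fgg and 0.836 for Fga. Fga was at 47.5, 117.2 and 254.5 against 294.9, 28.0 and 95 FPKM.

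Other genes varied in another order of mice. Cyp4a14, a fatty acid hydroxylase and PPAR alpha target from a cluster of close copies, was at 11.7, 59.1 and 6.64 against 88.3, 14.2 and 91.1 FPKM (adjusted p = 0.249), with 1.80 in normoxic and 46.8 in preconditioned sham. Preconditioned mouse 2 was far under the others of its group. Slc25a22, a mitochondrial glutamate carrier, was at 23.4, 116.6 and 24.4 against 13.2, 8.55 and 15 FPKM, with normoxic mouse 2 alone far above the rest (adjusted p = 0.0598, and 0.0396 and 0.0285 without normoxic mouse 1 or 2).

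**Figure D5:**
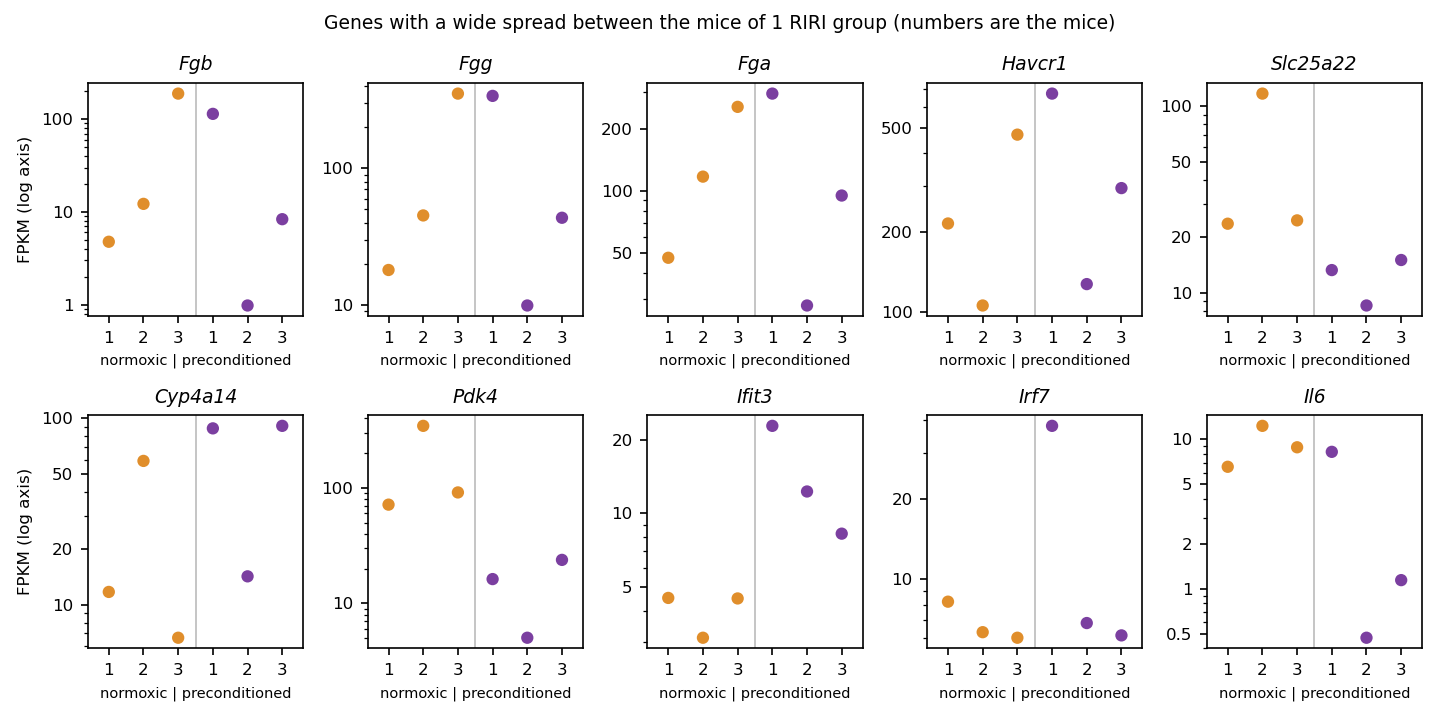
FPKM on a log axis in each injured mouse (normoxic mice 1 to 3 in orange on the left, preconditioned mice 1 to 3 in purple on the right of the grey line) for 10 genes with uneven values within a group. Fgb, Fgg, Fga and Havcr1 share high values in normoxic mouse 3 and preconditioned mouse 1, Irf7 is high in preconditioned mouse 1 only, and Il6 is low in preconditioned mice 2 and 3.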

How the data were processed

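Per the labels' protocols, TRIzol was used to extract total RNA of frozen kidneys, the VAHTS Universal V10 kit to build the libraries and a DNBSEQ-T7 to sequence them, and all 12 libraries carry 1 batch number. Expression was deposited by the authors as FPKM in a single table, with 1 row per gene symbol. The submitters' processing notes name mm10, HTSeq and DESeq2, and neither aligner nor annotation is given in the sources used here. Proteomic data were not analysed here.

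Steps between the deposited FPKM values gave back whole reads in 25548 genes, at a tolerance of 1e-06, and not in 5. They served to check depth and for 1 alternative. Of 66 pairs of libraries 0 shared an equal value above 0, and the lowest chi-square per gene was 10.53, so no library was counted as a copy.

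The 11754 genes that reached 1 FPKM in 3 or more of the 6 injured libraries were tested on the log2(FPKM + 1) scale with limma 3.58.1 (R 4.3.3), using its mean-variance trend and adjusting p by Benjamini-Hochberg over all of them. Log2 fold changes are on that scale, which understates changes of low genes. A gene was called at an adjusted p under 0.05. Only the 6 injured libraries entered the fit, because sham libraries vary less. This was decided with results of fits to 6 and to 12 libraries known. The labels state 3 mice per group, and p values measure the spread between these mice. On simulated data for this comparison with 11754 genes, 81% of 100 genes changed by log2 1 and 99% of 100 changed by log2 2 were recovered, with 9 false calls.

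The 51 gene lists, the rule for named genes and the genes themselves were chosen with earlier results of these data known. The rule took the 10 largest increases and decreases among called genes without overlap and with a mean of at least 5 FPKM in the higher group, passing over predicted genes, clones and pseudogenes. It added up to 3 called members of each list with the smallest adjusted p, the IL-17 receptor genes with Lcn2, Havcr1 and Krt20, the 5 largest gains and losses in FPKM, and the 5 widest spreads per group. Chosen outside it, after values were seen, were 28 genes: S100a8, S100a9, Cxcl1, Cxcl2, Il6, C1qa, Slc34a1, Slc5a2, Umod, Kap, Hbb-bs, Irf7, Sdf2l1, Pdia4, Hspa5, Pecam1, Slc2a1, Npl, Apoa4, Hmga1, Sox9, Slc22a6, Glyctk, Cxcl12, Maf, Pax8, Chac1 and Gpx4. Also chosen so were the promoters shown. Some genes that the rule names, and 1 motif, are not reported here. Positions are from RefSeq GRCm38.p6, the assembly of mm10, which held 11593 of the tested symbols.

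Alternatives were quantile normalization, median-ratio rescaling, a filter at 5 FPKM or none, a pseudocount of 0.1, no trend, all 12 libraries in the fit, a replicate block, limma voom on recovered reads, a minimum log2 fold change of 1, and each library left out.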

Additional observations from a re-analysis of the deposited data

How the results depend on the processing

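The 3 mice per group and 4 residual degrees of freedom limit the precision. The count of genes higher in preconditioned RIRI, 1875, was 1224 without a filter, 2850 in the fit of all 12 libraries, 1060 with the replicate block and 335 at a minimum log2 fold change of 1. The count of lower genes, 1386, was 871, 2153, 795 and 234 under the same settings. With 1 mouse left out the counts ran from 961 to 1930 higher and from 662 to 1332 lower. Other settings gave 1251 to 1916 higher and 1102 to 1747 lower, and limma voom on recovered reads gave 1916 and 1467. No gene was called in the opposite direction in any of these fits (0 genes). Replicate numbers do not pair the mice: deviations of same-numbered injured mice correlated at -0.262, -0.242 and -0.082, and each preconditioned mouse correlated best with a normoxic mouse of another number.

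Of 2643 values of 167 named genes under alternatives, 2381 kept direction and call, 230 lost and 16 gained the call, and 16 changed sign. The changes of sign were all from leaving out 1 mouse, in genes that were not called: Havcr1 ran from -0.19 to 1.01, Fgb from -2.50 to 0.56, Fgg from -1.62 to 0.89, Fga from -1.11 to 0.57, Il17rc from -0.20 to 0.0030, Traf6 from -0.14 to 0.035, C1qa from -0.18 to 0.13, Irf7 from -0.059 to 1.16, Slc5a2 from -0.061 to 0.091 and Slc34a1 from -0.016 to 0.23 (log2). The cause was not tested.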
